A study of Mus musculus with 8 samples.

Results

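The 9 genes described here encode C-type lectin receptors of myeloid cells, and they were taken by name from the 55414 genes of the deposited count table. They are Clec4e, Clec4d, Clec4n, Clec5a and Clec7a, which signal as activating receptors, Clec4a2 and Clec12a, which carry inhibitory tails, and Clec4a1 and Clec4a3, relatives of Clec4a2 that were put on neither side. The libraries came from macrophages of mouse skin wounds, taken 3 days (5 libraries, a to e) or 1 day (3 libraries, a to c) after injury. Cells were released from the wound bed with collagenase and pulled out on magnetic beads against F4/80, a surface antigen of mouse macrophages, so a library is a bead-enriched fraction and not a pure cell type. Per the labels' protocols, each sample pooled 6 wounds from 3 mice, and 6 samples were stated for each time point; 8 libraries in all were analysed here. No strain, age, sex, genotype or drug is named in the labels for either day, and the day after wounding is the only stated difference. The p-values measure the spread between these pools. In bulk RNA of this kind, fewer cells of a type and less RNA per cell cannot be told apart.

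C-type lectin receptors let phagocytes recognise sugars and lipids on microbes and on damaged cells. The activating ones either pair with a small adaptor that carries an ITAM, such as the Fc receptor gamma chain (Fcer1g) or DAP12 (Tyrobp), or bear an ITAM-like motif themselves, and in both cases the kinase Syk and the scaffold Card9 pass the signal on to cytokine genes. The inhibitory ones carry an ITIM, a tail motif that recruits phosphatases and dampens such signals. Most of the genes lie in gene clusters on mouse chromosome 6, named after the receptors Dectin-2 and Dectin-1.

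The libraries held 41566151 to 60289310 counts each, and levels are given as CPM, counts scaled to the library total after TMM adjustment. Genes with at least 1 count numbered 20557, 15320, 14952, 15070 and 15359 in day 3 a to e. At day 1 they numbered 26530, 27315 and 23928 in a to c. This difference runs along the days, bears on genes with low counts, and its cause was not tested. A count of 3, taken as the limit that a count of 0 allows, corresponded to 0.0499 to 0.0752 CPM, far below every member, and this limit covers counting error only. All 11 macrophage markers were detected, with a summed level of 54369 to 65479 CPM at day 3 and 22463 to 32749 CPM at day 1. The bead target Adgre1 averaged 1128 ± 76.3 CPM at day 3 and 817 ± 127 CPM at day 1 (SD, n = 5 and 3), and the most abundant marker was Apoe. By its marker sums 1 day 3 library stood apart. In day 3 b the 14 neutrophil markers summed to 3852 CPM, against 454 to 689 CPM in day 3 a, c, d and e and 876, 2312 and 4127 CPM at day 1. All 14 were above 3 counts in at least 1 library, S100a8 led with 1771 CPM in day 3 b, and Ly6g and Ngp were at 0 in 1 library each, Cd177 in 1, Ltf in 3 and Camp in 5. The 4 keratinocyte markers, led by Krt14, also peaked in day 3 b, at 27.7 CPM, against 0.157 to 4.48 CPM in day 3 a, c, d and e and 0.251 to 1.10 CPM at day 1. The 8 inflammatory monocyte markers, led by Thbs1, summed to 4628 to 5843 CPM at day 3 and 7659 to 10170 CPM at day 1, and the 9 dendritic cell markers, led by Ccr7, to 41.1 to 185 CPM at day 3 and 92.0 to 213 CPM at day 1. The 6 fibroblast markers (Col3a1 leading) summed to 56.0 to 119 CPM at day 3 and 9.45 to 37.5 CPM at day 1, and the 4 endothelial markers (Pecam1) to 13.05 to 27.1 CPM at day 3 and 28.4 to 68.4 CPM at day 1. Sums of mast cell (Kit), T and NK cell (Nkg7) and B cell (Ms4a1) markers did not exceed 11.4 CPM in any library, and Mcpt4 and Tpsb2 of mast cells were at 0 throughout. The results below are given with and without this library where they rest on it.

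All 9 receptors were expressed at both days and all passed the filter on low counts. Clec12a was the receptor that separated the days: each of its 5 day 3 values lay above its highest day 1 value. Clec4e and Clec4d were lower than every day 1 library in 4 of 5 day 3 libraries, and day 3 b went the other way. Clec4a1 and Clec4a3 had higher means at day 3, and Clec4n, Clec5a, Clec7a and Clec4a2 had overlapping values. In edgeR's quasi-likelihood test over 15371 genes with Benjamini-Hochberg adjustment, 0 of the 9 passed an adjusted p of 0.05, where 2 genes in all, 0.013% of those tested, did. An unadjusted p under 0.05 was reached by 3 of the 9, Clec12a, Clec4a1 and Clec4a3, all higher at day 3; the share of all tested genes with such a p was 15.7% in either direction 5.16% for higher and 10.5% for lower at day 3. DESeq2 and limma voom on the same genes each called 1 of the 9, Clec12a, beside 6.77% of all tested genes for DESeq2 (2.48% higher, 4.29% lower at day 3) and 5.37% for voom (0.963% higher, 4.4% lower). With a stricter filter, which kept 8142 genes, edgeR called Clec12a and 1.79% of all genes (0.774% higher, 1.02% lower). The log2 fold change was above 0 for 5 of 9 receptors and for 42.9% of all tested genes (46.7% of the 2320 genes at an average log2 CPM of 6 or more), with medians of 0.03 for the 9 and -0.17 for all. The day ranges did not overlap for 1 of the 9, Clec12a; they lay apart in 14.1% of all tested genes, with day 3 higher in 5.35% and lower in 8.73%, or higher in 12.3% of those 2320 abundant genes.

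**Figure D1:**
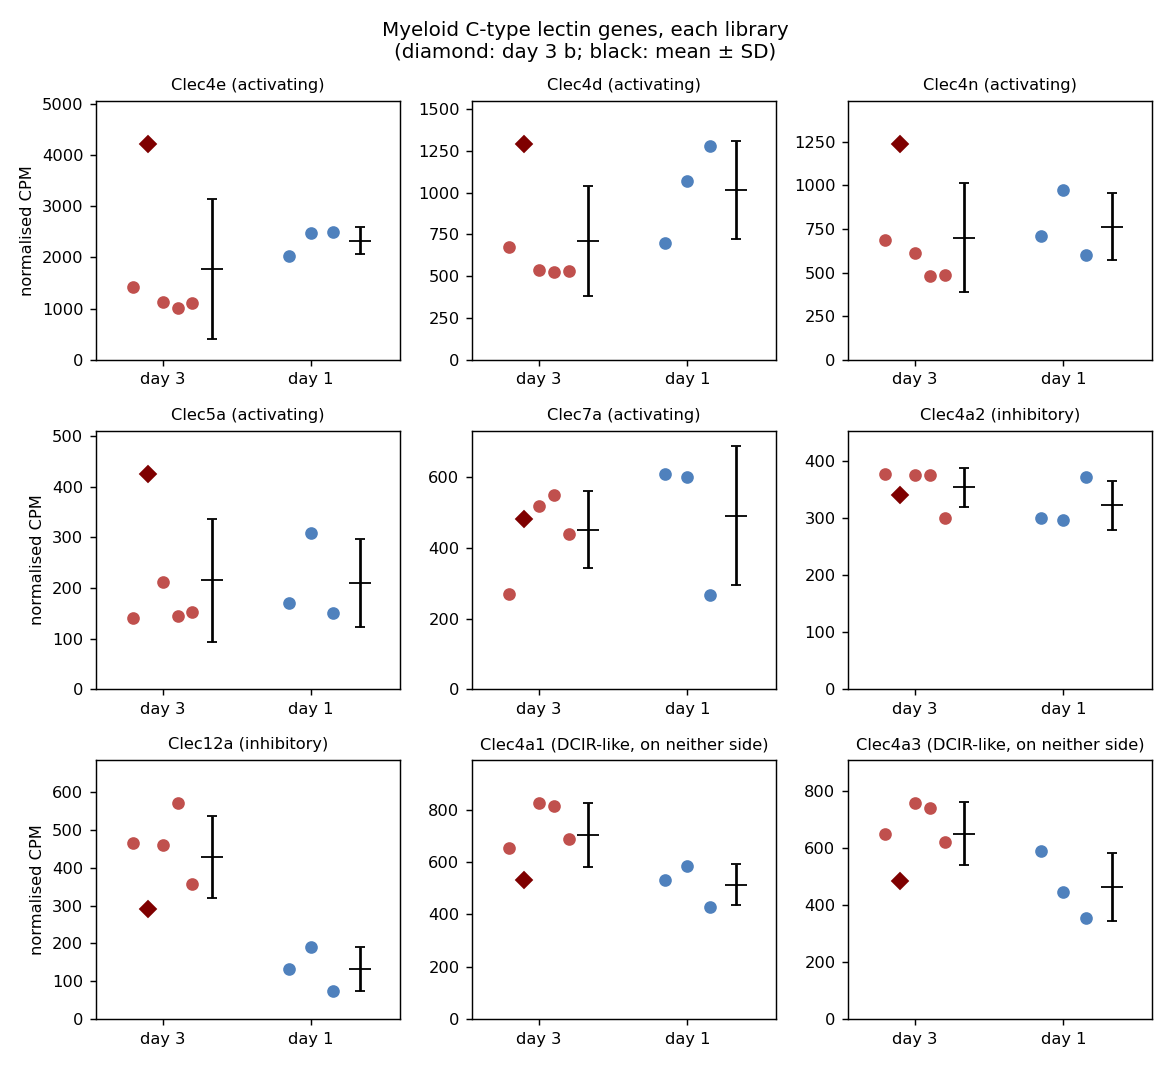
Normalised CPM (y axis, linear, from 0) of each lectin gene in the 5 day 3 libraries (red, left) and the 3 day 1 libraries (blue, right), with the mean ± SD of each day in black and day 3 b as a dark diamond. Clec12a has no overlap between the days, and day 3 b is the highest day 3 library for Clec4e, Clec4d, Clec4n and Clec5a.

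**Figure D2:**
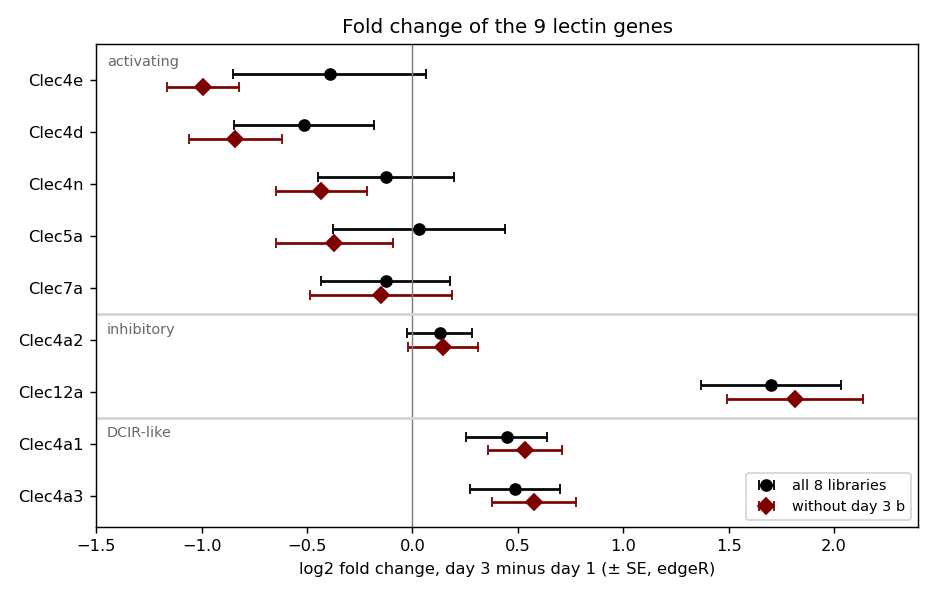
Log2 fold change of day 3 over day 1 with its standard error (x axis) for the 9 genes, from edgeR, with all 8 libraries (black circles) and without day 3 b (dark red diamonds). Clec12a lies at 1.70 with all libraries, and Clec4e moves to -0.99 without day 3 b.

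The sequences upstream of the receptors at the ends of this range, Clec12a on one side and Clec4e and Clec4d on the other, are shown for context, since these genes differ most in how they varied over the libraries. They are RefSeq promoters on GRCm38.p6, from 250 bases before to 50 bases after the annotated start, 5′ to 3′ on the gene's strand; gene coordinates given elsewhere are on GRCm39 and are not interchangeable. Capitals mark matches, on either strand, to PU.1 (GAGGAA), C/EBP (TTGCNNAA) or AP-1 (TGANTCA), factors that bind in many myeloid genes. Clec12a lies at chr6:129349994-129350293 on the plus strand, Clec4e at chr6:123289822-123290121 on the minus strand, and Clec4d at chr6:123261857-123262156 on the plus strand.
Clec12a: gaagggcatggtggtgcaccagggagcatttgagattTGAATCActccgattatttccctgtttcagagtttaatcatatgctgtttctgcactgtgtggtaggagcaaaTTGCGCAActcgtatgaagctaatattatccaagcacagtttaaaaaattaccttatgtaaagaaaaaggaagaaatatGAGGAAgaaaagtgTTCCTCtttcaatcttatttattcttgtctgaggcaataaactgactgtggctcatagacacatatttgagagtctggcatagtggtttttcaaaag
Clec4e: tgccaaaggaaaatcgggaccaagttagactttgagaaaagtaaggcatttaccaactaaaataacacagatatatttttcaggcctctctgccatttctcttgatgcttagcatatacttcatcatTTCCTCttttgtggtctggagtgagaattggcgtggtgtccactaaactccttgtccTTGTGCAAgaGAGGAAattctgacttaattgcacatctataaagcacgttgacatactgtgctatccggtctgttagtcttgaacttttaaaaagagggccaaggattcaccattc
Clec4d: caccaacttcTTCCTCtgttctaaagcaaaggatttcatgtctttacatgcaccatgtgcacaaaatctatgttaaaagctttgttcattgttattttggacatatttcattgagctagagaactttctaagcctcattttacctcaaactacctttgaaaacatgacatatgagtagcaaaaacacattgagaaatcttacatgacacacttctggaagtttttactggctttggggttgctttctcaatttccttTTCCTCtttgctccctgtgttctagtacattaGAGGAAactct
The C/EBP letters started 66 bases before the start site in Clec4e and 140 bases before it in Clec12a and were not in the Clec4d window, and of the 3 only the Clec12a window held AP-1 letters. Of the 9 receptors 8 had an entry in the RefSeq table, with 10 windows in all since Clec4a3 and Clec7a have several starts, and Clec4n is named only. PU.1 letters were in 8 of these 10 windows, from 7 genes without Clec4a2, and in 28.3% of all 32851 windows of that length. C/EBP letters were in 2 of 10 windows and in 10.8% of all, and AP-1 letters in 2 of 10 (Clec12a and Clec4a2) and in 7.81% of all. A PU.1-IRF composite motif was in 3 of 10 windows, of Clec4a1 and Clec7a, and in 2.72% of all, and NF-kB letters were in 0 of 10 and in 5.81% of all. The windows of 1 gene overlap, so they are not independent. These are matches of letters and not measured binding. The first bases after the RefSeq start, a part of the 50 shown, were found in a GENCODE transcript of the gene for Clec12a but not for Clec4e or Clec4d.

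Clec4e (Mincle, ENSMUSG00000030142) binds microbial glycolipids and a nuclear protein released by dying cells, and signals through Fcer1g. It lies on chromosome 6 from 123258748 to 123266829 (minus strand, GRCm39) and had the highest CPM of the 9. It was at 1420, 4217, 1139, 1016 and 1116 CPM in day 3 libraries a to e, against 2022, 2481 and 2492 CPM in day 1 libraries a to c. Day 3 b was above all other libraries, 2.97 times the next day 3 library, and the other day 3 libraries were below all of day 1. The log2 fold change was -0.39 ± 0.46 (SE), with an adjusted p of 0.755 in edgeR. Without day 3 b it was -0.99 ± 0.17, with an adjusted p of 0.0651 in edgeR. With the stricter filter it was then -0.96, with an adjusted p of 0.0349 in edgeR. That omission takes out the library where Clec4e was highest, so these p-values are no independent test of a fall. Leaving out any other single library under the stricter filter gave -0.46 to -0.22, with adjusted p of 0.625 to 0.833 in edgeR. With the summed neutrophil markers as a covariate, a fit added after the data were seen, the log2 fold change was 0.04. Neutrophil markers moved with this receptor over the libraries, and their part in the result was not tested.

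Clec4d (MCL, ENSMUSG00000030144) forms a complex with Clec4e and also works through Fcer1g; it is the next gene on the chromosome (123239070 to 123252224, plus strand). Its level was 675, 1291, 539, 523 and 532 CPM in day 3 libraries a to e, against 698, 1068 and 1278 CPM in day 1 libraries a to c. As for Clec4e, 4 of 5 day 3 libraries were below all of day 1 and day 3 b was above them. Its log2 fold change was -0.51 ± 0.33 with an adjusted p of 0.526 in edgeR; without day 3 b it was -0.84 ± 0.22 with an adjusted p of 0.105. With the neutrophil covariate it was -0.0041. The ratio of Clec4e to Clec4d CPM was between 1.94 and 3.27 in all 8 libraries, with the highest value in day 3 b.

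Clec4n (Dectin-2, ENSMUSG00000023349) binds mannose-rich fungal glycans and likewise needs Fcer1g; it lies from 123206802 to 123223980 on the plus strand. It had 685, 1237, 614, 479 and 486 CPM in day 3 libraries a to e, against 709, 976 and 602 CPM in day 1 libraries a to c. The days overlapped and day 3 b was again the highest library. The log2 fold change was -0.13 ± 0.32 with an adjusted p of 0.906 in edgeR, and -0.43 ± 0.22 with an adjusted p of 0.396 without day 3 b. Its transcripts shared 0.686% of their 50-base words with a predicted gene, Gm44147.

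Clec5a (ENSMUSG00000029915), an activating receptor that uses the adaptor Tyrobp and is known to bind dengue virus, lies far from the other 8, at 40551828 to 40562755 on the minus strand of chromosome 6. It was at 142, 426, 212, 144 and 153 CPM in day 3 libraries a to e, against 170, 309 and 150.4 CPM in day 1 libraries a to c. Day 3 b was the highest library and the days overlapped. In edgeR its log2 fold change was 0.03 ± 0.41 with an adjusted p of 0.984, and -0.37 ± 0.28 with an adjusted p of 0.605 without day 3 b. Its sign also turned without day 1 a (-0.12) and without day 1 c (-0.17).

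Clec7a (Dectin-1, ENSMUSG00000079293), the receptor for fungal beta-glucan with an ITAM-like motif of its own, lies from 129438554 to 129449742 on the minus strand. Its level was 271, 481, 518, 550.1 and 440.0 CPM in day 3 libraries a to e, against 611, 600.0 and 266 CPM in day 1 libraries a to c. One library in each day, day 3 a and day 1 c, stood at about the same low level, and day 3 b was in the middle of its group. The log2 fold change was -0.13 ± 0.31 with an adjusted p of 0.900 in edgeR. Clec7a thus did not share the high value that the other 4 activating receptors had in day 3 b.

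Clec12a (MICL, ENSMUSG00000053063) is an inhibitory receptor with an ITIM that recognises uric acid crystals and restrains myeloid activation; it lies from 129319654 to 129342266 on the plus strand. It was at 467, 290.1, 460.2, 570.3 and 357 CPM in day 3 libraries a to e, against 131, 189.7 and 74.3 CPM in day 1 libraries a to c. Each day 3 library was above each day 1 library, and the lowest of day 3 was b. Means were 429 ± 108 CPM at day 3 and 132 ± 57.7 CPM at day 1 (SD, n = 5 and 3), and the log2 fold change was 1.70 ± 0.33 (SE). The adjusted p in edgeR was 0.0766 over 15371 genes and 0.0317 over the 8142 genes of the stricter filter. It was 3.28e-05 in DESeq2 and 0.0162 in limma voom. Under the stricter filter the adjusted p passed 0.05 upward on leaving out 1 library in 6 of 8 cases: it was 0.0513 on dropping day 1 a, 0.0503 on dropping day 1 c, and 0.0889, 0.0930, 0.0897 and 0.0714 on dropping day 3 a, c, d and e in turn. Of all genes under that filter, 183 were called without day 1 a, 99 without day 1 c and 17 without day 3 a. On dropping day 3 c, d or e, 0 genes were called, so there the loss was not particular to Clec12a. The log2 fold change of Clec12a lay between 1.45 and 2.10 over all 8 omissions. With the neutrophil covariate under the same filter it was 1.39, with an adjusted p of 0.0841 in edgeR. The summed macrophage markers above also had non-overlapping ranges, higher at day 3, and their part in the result was not tested.

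Clec4a2 (DCIR, ENSMUSG00000030148), an ITIM-bearing receptor of the Dectin-2 cluster, lies from 123083387 to 123120958 on the plus strand. It had 377, 340.0, 376, 374 and 299.7 CPM in day 3 libraries a to e, against 299, 296 and 372 CPM in day 1 libraries a to c. This was the steadiest of the 9, with a highest value 1.26 times the lowest at day 3 and 1.25 times at day 1. Between the days it had a log2 fold change of 0.13 ± 0.15 with an adjusted p of 0.762 in edgeR. Of its 50-base words 6.83% were shared with other genes, Clec4a4 and Clec4b1 among them, so its counts are less certain than those of the others, of which Clec4d, Clec4e, Clec5a, Clec7a, Clec4a1 and Clec4a3 shared none and Clec12a shared 0.457%.

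Clec4a1 (ENSMUSG00000049037) and Clec4a3 (ENSMUSG00000043832), close relatives of Clec4a2 whose signalling is less settled, sit side by side at 122898807 to 122911578 and 122929474 to 122946834 on the plus strand. Clec4a1 was at 655, 532, 826, 817 and 689 CPM in day 3 libraries a to e, against 531, 585 and 428 CPM in day 1 libraries a to c. Clec4a3 was at 648, 484, 756, 740 and 621 CPM in day 3 libraries a to e, against 588, 447 and 354 CPM in day 1 libraries a to c. For both, 4 of 5 day 3 libraries were above all of day 1, and b was the lowest of day 3. Clec4a1 had a log2 fold change of 0.45 ± 0.19 with an adjusted p of 0.298, and Clec4a3 had one of 0.49 ± 0.21 with an adjusted p of 0.311 in edgeR. The 2 genes kept to a ratio of Clec4a1 to Clec4a3 CPM of 0.905 to 1.31 in the 8 libraries.

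Activating against inhibitory receptors were compared as the summed CPM of the 5 activating genes over that of Clec4a2 and Clec12a. The ratio was 3.78, 12.1, 3.61, 2.87 and 4.16 in day 3 libraries a to e, against 9.79, 11.2 and 10.7 in day 1 libraries a to c. Day 3 b was above all other libraries, while the other day 3 libraries were below all of day 1. The mean log2 ratio was 2.19 ± 0.81 at day 3 and 3.40 ± 0.098 at day 1 (SD, n = 5 and 3), a difference of -1.21, which became -1.56 without day 3 b. As a score over chosen genes it was given no test. The inhibitory sum was 844, 630.1, 836, 945 and 656 CPM in day 3 libraries a to e, against 430.0, 486 and 446 CPM in day 1 libraries a to c, with every day 3 library above all of day 1; of its 2 genes, Clec12a lay apart between the days and Clec4a2 overlapped. The activating sum was 3193, 7652, 3021, 2712 and 2727 CPM in day 3 libraries a to e, against 4210, 5434 and 4788 CPM in day 1 libraries a to c. So in day 3 b the high ratio came with an activating sum of 7652 CPM, beside the lowest inhibitory sum of its day. The difference in the log2 ratio was -0.95 with per-length values, -0.87 without Clec4e and Clec4d, -1.25 with means of log2 CPM in place of sums, and -1.01 with Clec4a1 and Clec4a3 counted as inhibitory. With Clec4a2 alone on the inhibitory side, an alternative added after the data were seen, it was -0.57, and the ratio was 8.46, 22.5, 8.04, 7.24 and 9.10 in day 3 libraries a to e, against 14.1, 18.3 and 12.9 in day 1 libraries a to c. Day 3 b was again above all libraries and the other day 3 libraries below all of day 1. With means of log2 CPM in place of sums, day 3 b was at 1.76, within the day 1 range of 1.68 to 1.86. The other day 3 libraries were below that range.

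**Figure D3:**
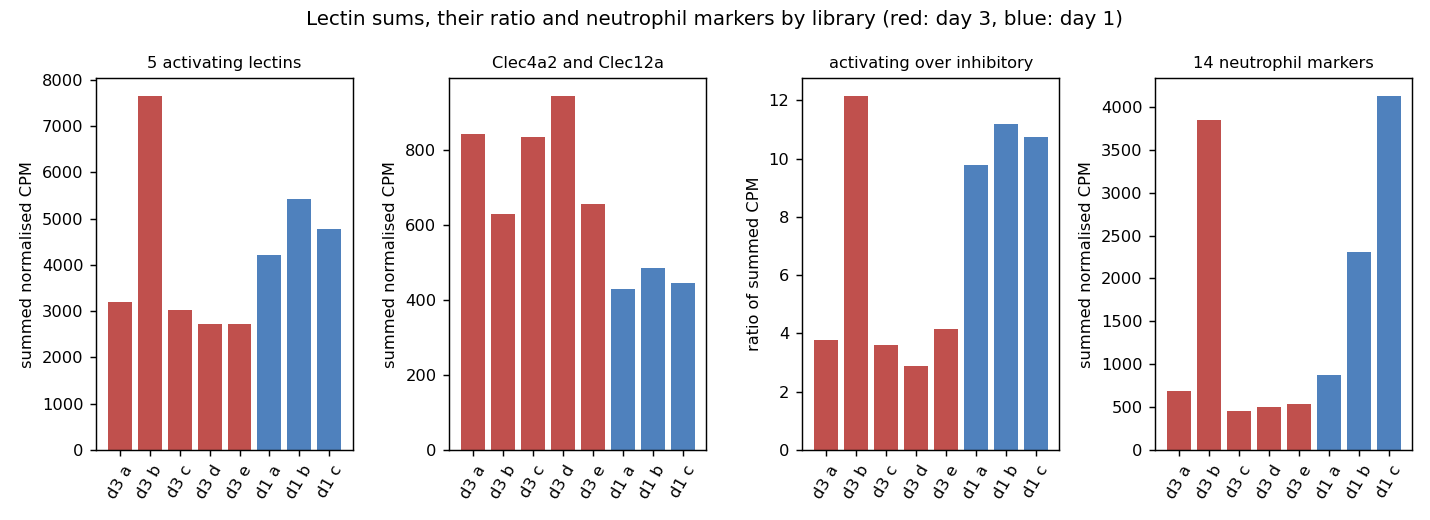
Bars from 0 for each library (red day 3 a to e, then blue day 1 a to c) of the summed CPM of 5 activating lectins, the summed CPM of Clec4a2 and Clec12a, the ratio of these sums, and the summed CPM of 14 neutrophil markers. Day 3 b has an activating sum of 7652 CPM, a ratio of 12.1 and a neutrophil marker sum of 3852 CPM.

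Levels of different genes were compared per kilobase of exon. At day 3 the order was Clec4n (493.1 CPM per kb), Clec4a3 (489.8), Clec4a1 (452), Clec4d (445), Clec4e (359), Clec7a (171), Clec4a2 (121), Clec12a (77.6) and Clec5a (56.1). Neighbours in that order differed by more than the larger of their SDs only from Clec7a to Clec4a2 and from Clec4a2 to Clec12a. The first place of Clec4n rested on day 3 b. Clec4n was at 482, 871, 432, 337 and 342 CPM per kb in day 3 libraries a to e. Clec4a3 was at 489, 365, 570, 558 and 468 CPM per kb there, above Clec4n in a, c, d and e. At day 1 the order was Clec4d (634 CPM per kb), Clec4n (537), Clec4e (469.6), Clec4a3 (349), Clec4a1 (330.4), Clec7a (187), Clec4a2 (110.2), Clec5a (54.7) and Clec12a (23.8). There the first 3 did not differ beyond that spread, and neither did Clec4a3 and Clec4a1. Clec12a was the lowest of the 9 at day 1 and stood beside Clec5a, within its SD, at day 3.

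The profile of each gene over the 8 libraries was compared as log2 CPM centred on its own mean. The closest pair of receptors was Clec4a1 and Clec4a3, with a mean absolute difference of 0.103, followed by Clec4d and Clec4e (0.215), Clec4n and Clec5a (0.227) and Clec4d and Clec4n (0.231). The farthest apart were Clec4e and Clec12a (1.40) and Clec4d and Clec12a (1.24). The ratio of Clec4e to Clec12a CPM was 3.04, 14.5, 2.47, 1.78 and 3.13 in day 3 libraries a to e, against 15.4, 13.1 and 33.5 in day 1 libraries a to c. Day 3 b lay within the day 1 range and the other day 3 libraries below it.

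**Figure D4:**
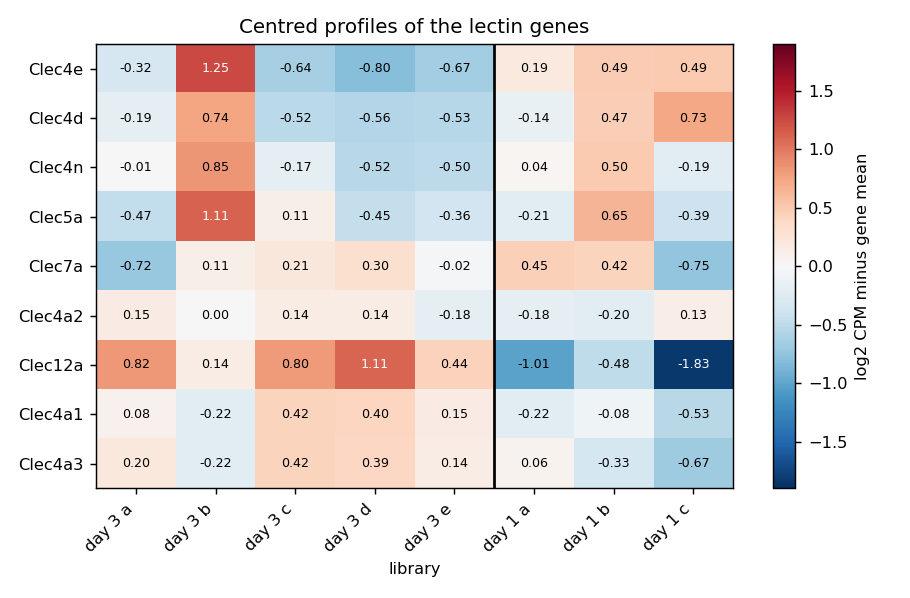
Heat map of log2 CPM minus the gene's mean over 8 libraries (colour, value printed) for the 9 genes (rows) in day 3 a to e and, right of the black line, day 1 a to c. Clec4e reaches 1.25 in day 3 b, and Clec12a is positive in all 5 day 3 libraries and negative in all 3 day 1 libraries.

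Among 3812 abundant genes compared over the same 8 libraries, the 3 nearest to each receptor were found by the mean absolute difference of centred log2 CPM. Clec4e lay nearest to Sod2 (0.125), Pdpn (0.182) and Il1r2 (0.195), and Clec4d to Sod2 (0.157), Pdpn (0.160) and Fam107b (0.161), so that 2 of the 3 names were shared. Clec4n lay nearest to Plek (0.105), Prdx5 (0.130) and Baz1a (0.146), Clec5a to Foxn2 (0.161), Gsap (0.180) and Irak3 (0.189), and Clec7a to Nsrp1 (0.145), Zmym5 (0.153) and Sumf1 (0.154). Clec12a lay nearest to Igf1 (0.208), and Rgs1 (0.234) was also among its 3 closest, with a wider nearest distance than any other of the 9. Clec4a2 lay nearest to Ngly1 (0.0693), Rack1 (0.0857) and Srp19 (0.0888), and Clec4a1 to Parp2 (0.0809), Matr3 (0.0858) and Rab14 (0.0869). Clec4a3 lay nearest to Tmem126b (0.0834) and Naxe (0.0901), and then to Clec4a1 (0.103), the one case where the list held another receptor of the 9.

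Along the Dectin-2 cluster none of the receptors was called by edgeR over all 8 libraries. The log2 fold changes of Clec4a1 and Clec4a3 were at 0.45 and 0.49, Clec4a2 in the middle was at 0.13, and Clec4n, Clec4d and Clec4e were at -0.13, -0.51 and -0.39, with a sign that turned in 4 of 19 alternatives for Clec4n and in 1 for Clec4e. Other lectin genes lie between them, and their levels were far lower: Clec4b1, an activating relative, averaged 40.8 ± 13.97 CPM at day 3 and 11.6 ± 6.82 CPM at day 1, Clec4a4 averaged 4.38 CPM at day 3 and 5.41 CPM at day 1 (log2 fold change -0.31), and Clec4b2 did not exceed 0.218 CPM. In the Dectin-1 cluster, Clec12a at 1.70 and Clec7a at -0.13 flank Clec12b, Clec1b, Clec9a and Clec1a, whose highest values in any library were 0.0908, 1.46, 0.327 and 0.472 CPM.

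**Figure D5:**
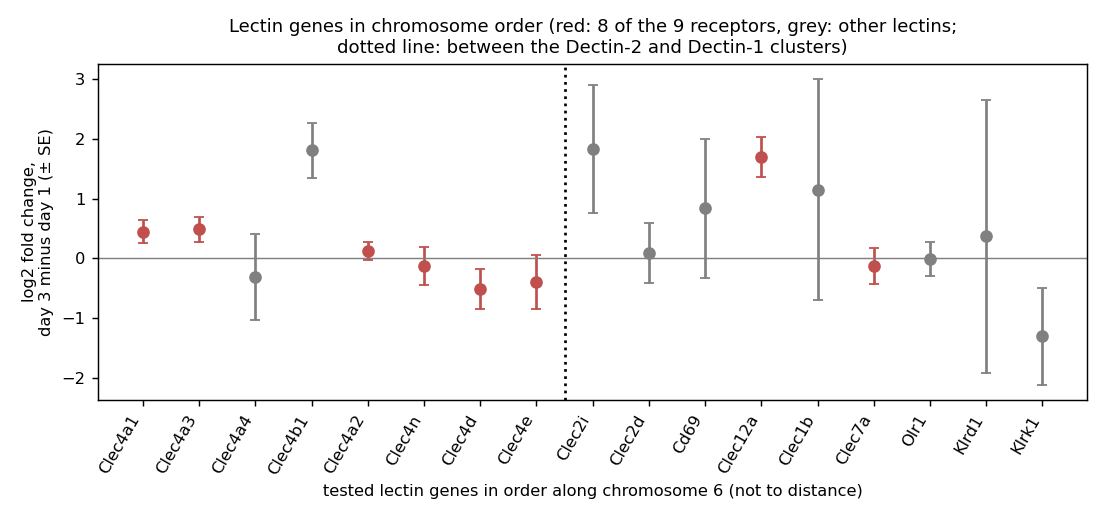
Log2 fold change of day 3 over day 1 with its standard error (y axis) for the tested lectin genes in their order along chromosome 6 (x axis, not to distance); red points are 8 of the 9 receptors (Clec5a lies elsewhere), grey points other lectins. Clec12a is at 1.70, and Clec4a1 to Clec4e run from 0.45 to -0.39 with Clec4a4 and Clec4b1 between them.

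The adaptors and signalling genes of these receptors were read from a list of 30, and all 30 were tested. Of these 0 were called by edgeR, with or without the stricter filter, by DESeq2 or by limma voom. Of all tested genes, edgeR called 0.013%, or 1.79% with the stricter filter, DESeq2 6.77% and limma voom 5.37%. The log2 fold change was above 0 for 8 and below 0 for 22, where 42.9% of all tested genes were above 0. The median was -0.26, against -0.17 over all tested genes. An unadjusted p under 0.05 in edgeR was reached by 1 in the higher direction, Hcst, and 8 in the lower. Of all tested genes 5.16% reached it as higher and 10.5% as lower. Fcer1g, the adaptor of Clec4e, Clec4d and Clec4n, averaged 2991 ± 182 CPM at day 3 and 2488 ± 320 CPM at day 1, with no overlap between the days. Its log2 fold change was 0.26 ± 0.15 with an adjusted p of 0.448 in edgeR. Tyrobp, the adaptor of Clec5a, averaged 896 ± 126 CPM at day 3 and 786 ± 180 CPM at day 1 (adjusted p 0.723 in edgeR). The 3 lowest p-values were those of Vav3 and Vav1, exchange factors downstream of Syk, and Inpp5d, the lipid phosphatase SHIP1. Vav3 averaged 42.2 ± 8.36 CPM at day 3 and 67.9 ± 12.02 CPM at day 1 (log2 fold change -0.69 ± 0.22, adjusted p 0.157 in edgeR). Vav1 averaged 93.6 ± 16.6 CPM at day 3 and 141 ± 23.4 CPM at day 1 (log2 fold change -0.59 ± 0.20, adjusted p 0.168 in edgeR). Inpp5d averaged 48.7 ± 6.37 CPM at day 3 and 97.4 ± 60.9 CPM at day 1, where its highest library had 167 CPM. Syk itself averaged 65.7 ± 12.1 CPM at day 3 and 97.8 ± 17.1 CPM at day 1, with a log2 fold change of -0.58 ± 0.20 and an adjusted p of 0.193 in edgeR. Card9 did not exceed 2.05 CPM at day 3 or 5.65 CPM at day 1.

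Of 34 other C-type lectins 23 were tested and 0 were called by edgeR, where 0.013% of all tested genes were. There were 11 fold changes above 0 and 12 below, where 42.9% of all tested genes were above 0. An unadjusted p under 0.05 in edgeR was reached by 4 higher and 2 lower at day 3 (5.16% and 10.5% of all tested genes). Cd302, an endocytic lectin, was called with the stricter filter: it averaged 216 ± 24.9 CPM at day 3 and 110.3 ± 21.9 CPM at day 1, with a log2 fold change of 1.00 ± 0.19 and an adjusted p of 0.0308 there, against 0.0741 over all 15371 genes. That call was lost on dropping day 1 c (adjusted p 0.0510) or day 3 a, c, d or e (0.0617, 0.0930, 0.0894 and 0.0838) under the stricter filter in edgeR. All genes called in those fits were 99 without day 1 c, 17 without day 3 a and 0 without day 3 c, d or e. DESeq2 called 5 of the 23, Cd302, Clec10a and Clec4b1 higher and Cd209f and Cd209g lower at day 3, and limma voom called Cd302, beside 6.77% of all tested genes for DESeq2 and 5.37% for voom. Cd209f, one of the mouse relatives of DC-SIGN, averaged 34.4 ± 17.4 CPM at day 3 and 156 ± 92.7 CPM at day 1, with no overlap (log2 fold change -2.19 ± 0.52, adjusted p 0.0829 in edgeR). Clec4b1 had a log2 fold change of 1.81 ± 0.46 with an adjusted p of 0.0853 in edgeR. Mrc1, the mannose receptor and the most abundant of the list, averaged 983 ± 199 CPM at day 3 and 1324 ± 535 CPM at day 1 (adjusted p 0.477 in edgeR).

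Transcripts known to be induced through Syk and Card9 were read from a list of 19, all tested. None was called by edgeR, DESeq2 or limma voom, which called 0.013%, 6.77% and 5.37% of all tested genes. An unadjusted p under 0.05 in edgeR was reached by 0, and by 15.7% of all tested genes. There were 6 fold changes above 0 and 13 below, where 42.9% of all tested genes were above 0. The median was -0.32, against -0.17 over all tested genes. Cxcl2, a neutrophil-attracting chemokine, averaged 2222 ± 1255 CPM at day 3 and 4354 ± 2703 CPM at day 1 (log2 fold change -0.97 ± 0.47, adjusted p 0.362 in edgeR). Ccl4 averaged 1334 ± 544 CPM at day 3 and 1773 ± 652 CPM at day 1. Nlrp3, the inflammasome sensor, averaged 62.2 ± 34.6 CPM at day 3 and 157 ± 165 CPM at day 1 (adjusted p 0.343 in edgeR), and Nos2 averaged 0.867 ± 1.18 CPM at day 3 and 13.9 ± 20.3 CPM at day 1 (adjusted p 0.320 in edgeR). The within-day spread of these transcripts was wide: the day 3 range was 1149 to 4306 CPM for Cxcl2 and 36.3 to 122.8 CPM for Nlrp3.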

How the data were processed

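RNA-seq of bead-selected wound macrophages was deposited by the authors as 1 table of raw read counts per gene. Per the file headers, the counts were made with featureCounts 1.6.0 on GRCm39 with Ensembl release 106 genes; the submitters' processing notes also name Trimmomatic and DESeq2. The command in the header sets no strand or read-pair option, and its alignment names carry the same days as the columns but in part other letters, so the letters only name libraries. No member shared exon bases with another gene of the table on either strand. Of the aligner, nothing is given in these sources. Of the low counts from 2 to 20, 73.0 to 86.0% were even, and a fit on halved counts was among the alternatives. Gene symbols were matched for 52081 of 55414 identifiers (94.0%).

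Counts were fitted with edgeR 4.0.16 (R 4.3.3): filterByExpr with a minimum count of 10, TMM scaling, quasi-likelihood F tests (two-sided) of day 3 against day 1 over 15371 genes, and Benjamini-Hochberg adjustment at 0.05. Normalised CPM is the count over the TMM-scaled total. Standard errors are the absolute log2 fold change over the square root of F. The stricter filter kept genes at 1 CPM or more in every library of at least 1 day, with a mean of 5 CPM or more. Alternatives were DESeq2 1.42.0, limma 3.58.1 voom with and without library weights, other scalings and filters, each library left out, fits over letters a to c, and a neutrophil covariate. Procedures were tested on simulated data.

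The members and lists were chosen with earlier results of these data known, so no list was tested. Named genes were all 9 members, the 3 lowest p-values and 2 most abundant genes of each list, the most abundant marker of each cell type, and the 3 genes closest in profile, of which 1 is not reported here; Adgre1, Syk, Hcst, Card9, Ly6g, Ngp, Cd177, Ltf and Camp, the lectins called by DESeq2 and the neighbours on the chromosome were named after their values were seen. Tables and figures used Python 3.11.15, pandas 2.3.3, numpy 2.4.6 and matplotlib 3.10.9.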

Additional observations from a re-analysis of the deposited data

Results flagged for a closer look

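Of 36 day 3 groups of 5 libraries looked at, 10 had a library far from the others by Dixon's criterion (gap over range above 0.71); chance marks about 1 in 20 independent groups. These groups are not independent, since they share the same 5 libraries and the activating sum and the log2 ratio are built from the member genes, so that rate gives no chance value for 10 of 36. In 9 of the 10 this was day 3 b. It was the highest day 3 library for Clec4e (4217 CPM), Clec4d (1291 CPM), Clec4n (1237 CPM) and Clec5a (426 CPM), for the activating sum (7652 CPM) and for the log2 ratio of activating to inhibitory sums (3.60). The same library was highest for Nlrp3 (122.8 CPM), the neutrophil marker sum (3852 CPM) and the keratinocyte marker sum (27.7 CPM). Without it, the log2 fold change of Clec4e was -0.99 and that of Clec4d -0.84. The B cell marker sum was highest in day 3 d (1.12 CPM).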

How the results depend on the processing

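Of the 9 receptors, Clec12a, Clec4d, Clec4a1, Clec4a2 and Clec4a3 kept the sign of their fold change in all 19 alternatives to the default fit; the other 4 turned in some, and the cause was not tested. The number of receptors called, 0 by default, was 1 with DESeq2, both forms of limma voom, no filter, the stricter filter or an adjusted p under 0.1. With the stricter filter, leaving out 1 library gave 0 to 2 receptors called, and the neutrophil covariate 0. All genes called were 2 by default, against 1041 with DESeq2, 825 with voom, 990 with library weights, 1347 with no filter, 146 with the stricter filter, 735 at an adjusted p under 0.1, 46 on halved counts, 12 with the covariate, and 0 to 59 on leaving out 1 library. Under the stricter filter these were 0 to 390 on leaving out 1 library and 60 with the covariate. Calls in the other lectins were 5 (DESeq2), 1 (voom), 3 (library weights), 7 (no filter), 1 (stricter filter) and 0 to 1 (leaving out 1 library, with 1 only without day 3 b). Without a filter the signalling list had 2 calls and the induced list 4. That fit called 1347 of 38518 genes, 210 higher and 1137 lower at day 3, with a median log2 fold change of -1.40. Genes tested numbered 15371 in the default, DESeq2 and both voom fits, 8142 with the stricter filter and 13838 on halved counts.

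Log2 fold changes turned as follows with the covariate: Clec4e 0.040 (stricter filter 0.070), Clec4d 0.025 (stricter filter) and Clec4n 0.16 (stricter filter 0.19). Clec5a was -0.061 with voom and -0.32 with library weights. On leaving out 1 library, Clec4n ranged from -0.43 to 0.096 (stricter filter -0.40 to 0.13), Clec5a from -0.37 to 0.42 (-0.34 to 0.46) and Clec7a from -0.43 to 0.042 (-0.39 to 0.080).

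The letters were not used to pair the samples. Same-letter deviations from the day mean had correlations of 0.0544 (a), 0.00486 (b) and -0.0188 (c) over 8687 genes. Those of different letters were between -0.0686 and 0.0779. With so few libraries these values cannot show whether the samples were paired. Over letters a to c, the fits without and with the replicate block each called 0 genes and 0 receptors, with 1660 and 1343 genes at an unadjusted p under 0.05; Clec4n was 0.16 without and 0.12 with the block. The lowest value of any member was 74.3 CPM, far above the level of 3 counts.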
